A study of Mus musculus with 20 samples.

Results

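On day 7 of Xist induction, accessibility of regulatory elements (REs) on the inactive X chromosome (Xi) was compared between 2 SmcHD1 knockout (KO) lines and the 2 wild-type (WT) lines they were made from. The comparison takes all ATAC-seq peaks of the day 7 columns, 4 of the 20 libraries in the series. There were 390 peaks in the background with inducible Xist on the Dom chromosome (KO line SmA3) and 583 in the reciprocal background with Xist on the Cast chromosome (KO line SmD5). An overlap of 50% of the shorter peak or more made a peak shared, and the 345 shared peaks had identical coordinates in both tables. The 2 tables together hold 628 different peaks.

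Xist is a long noncoding RNA that spreads over the chromosome it is transcribed from and starts its silencing, and as genes are silenced their promoters and enhancers lose accessibility. SmcHD1 is a noncanonical SMC family protein that accumulates on Xi late in the process and is needed for many X-linked genes to stay silent. ATAC-seq uses the Tn5 transposase to cut and tag accessible DNA, so that its peaks mark promoters, enhancers and insulators. YY1 is a zinc finger transcription factor bound mostly at promoters, and CTCF is the insulator protein that holds chromatin loops in place.

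All lines are female mouse embryonic stem cells of a 129S (Dom) by Cast cross in which Xist is driven from a TetOn promoter. The day 7 cells of all lines were treated with 1 µg/ml doxycycline to induce Xist. Day 7 cells had been grown in N2B27 medium towards neural precursor cells (NPCs) and are labelled as an intermediate between mESC and NPC. The control samples are the 4 libraries of day 0, from the same lines as uninduced mESCs. SmA3 and SmD5 are each 1 clone, so a genotype cannot be told apart from what else differs between a clone and its parent. The cell line field of the Cast samples names the Dom line, and their titles and the table headers were followed. The tables hold peaks of chromosome X alone, so neither the loss of SmcHD1 nor the cell type could be checked against its own gene.

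For each peak and library the authors deposited an allelic ratio, Xi/(Xi + Xa), where Xa is the active X. The ratio is 0.5 where both chromosomes are equally accessible and 0 where all signal came from Xa. Fragment counts are not given with the ratios, so the depth behind a ratio is unknown. In these bulk libraries, a ratio raised in all cells cannot be told apart from Xi still accessible in part of the cells. Each line gave 1 library on day 7, so that the reciprocal backgrounds are the only replicates, and differences below are KO minus WT within a background. A peak is named by its nearest RefSeq transcription start site (TSS) and called a promoter within 500 bp of one.

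The sequences below come from the peaks that the results turn on, and are read from the reference genome (mm10, GRCm38.p6), 5′ to 3′ on the strand named. The first set holds the core word of the YY1 motif, AAGATGGC, in capitals, in 5 of the 20 peaks with the largest differences in both backgrounds. The Hcfc1 peak holds 8 such words, and the one nearest to the centre of each peak is shown.
Idh3g promoter, chrX:73787009-73787038, minus strand: ttcccctccccAAGATGGCggaacagtgct
Htatsf1 promoter, chrX:57053296-57053325, plus strand: cccacctccccAAGATGGCgcctgccgcaa
Hcfc1 promoter, chrX:73966958-73966987, minus strand: cttcttcacacAAGATGGCggctcccaggg
Wdr45 distal RE, chrX:7714332-7714361, minus strand: tggaacgtcccAAGATGGCcgccctccgca
Nlgn3 distal RE, chrX:101332441-101332470, minus strand: cccctggcaggAAGATGGCgtttgccgtca

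The second set holds the same word in REs of Firre and Xist, loci with many REs open on Xi in WT, which are given as a contrast. The Firre words lie in a repeated setting, as their flanks show. The label Xist promoter names the peak, which reaches the TSS at 103483233. The word printed for it lies downstream of that site, inside the Xist gene, and not at the TSS.
Firre intron, chrX:50607891-50607920, plus strand: agtaatggcagAAGATGGCgaccgattaca
Firre intron, chrX:50597366-50597395, plus strand: agcaatggcggAAGATGGCgaccgattaca
Firre intron, chrX:50580644-50580673, plus strand: gagaatgaaggAAGATGGCggccgattaca
Xist promoter, chrX:103481864-103481893, minus strand: tcgtacaggaaAAGATGGCggctcaagttc

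The third set shows core words of the CTCF motif in distal REs among the same 20 peaks.
Stard8 distal RE, chrX:99078738-99078767, plus strand: gtatcggccacCAGAGGGCagtggtactcc
Ints6l distal RE, chrX:56427532-56427561, plus strand: gaattggccacTAGGTGGCagtgcgagtcc
Nhsl2 intron, chrX:101942518-101942547, minus strand: ccactgtccccTAGGTGGCagcagcagccc

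On day 7 most Xi REs were closed in WT, and a large part of them remained partly open in both KO lines. The median allelic ratio of the Dom peaks was 0.0833 in WT (quartiles 0.0455 and 0.148) and 0.167 in SmA3 (0.0886 and 0.3). The median of the Cast peaks was 0.0714 in WT (quartiles 0.0376 and 0.129) and 0.167 in SmD5 (0.1 and 0.263). A ratio of at least 0.2 was found at 57 of 390 peaks in Dom WT and 170 in SmA3, and at 71 of 583 peaks in Cast WT and 251 in SmD5. Peaks listed at a ratio of exactly 0 numbered 32 in Dom WT and 42 in SmA3, whereas Cast WT had 82 and SmD5 27. Peaks at 0 were thus not fewer in SmA3 than in its parent, while they were in SmD5.

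Peak by peak, the median of KO minus WT was 0.0679 in the Dom background and 0.0833 in the Cast background, against -0.00637 and 0.000361 on day 0. A difference of at least 0.1 was seen at 157 of 390 Dom peaks (40.3%) and the opposite at 35 (8.97%). In Cast it was seen at 260 of 583 peaks (44.6%) and the opposite at 29 (4.97%). On day 0, before induction, both directions were equally frequent, with 72 peaks higher (18.5%) and 72 lower (18.5%) in Dom, and 88 higher (15.1%) and 90 lower (15.4%) in Cast. Over the lines, the mean of the KO medians exceeded that of the WT medians by 0.0893, and an exact two-sided permutation test of the 4 lines gave p = 0.333, the smallest it can give.

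**Figure D1:**
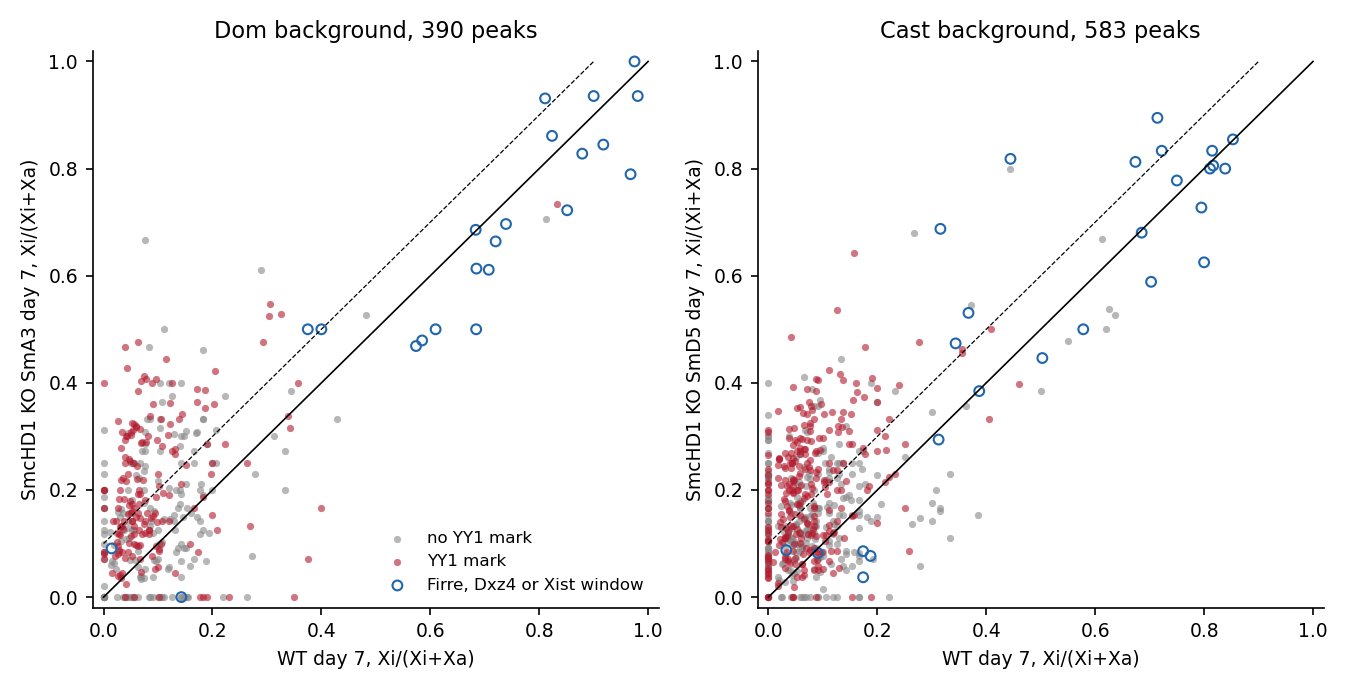
Day 7 allelic ratio Xi/(Xi + Xa) of each peak in WT (x axis) and SmcHD1 KO (y axis), for 390 peaks in the Dom and 583 in the Cast background, 1 library per line. Red points carry a YY1 mark, blue circles lie in the Firre, Dxz4 or Xist window, and in both panels most peaks with a WT ratio under 0.1 lie above the line of equal ratios.

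The difference was found at REs that WT cells had closed. Among peaks with a WT ratio below 0.05, the median of KO minus WT was 0.0962 over 108 Dom peaks and 0.113 over 202 Cast peaks. It was 0.091 and 0.0853 between WT ratios of 0.05 and 0.1, and 0.032 and 0.0452 between 0.1 and 0.2. At WT ratios of at least 0.5 it was -0.0721 over 20 Dom peaks and -0.0387 over 21 Cast peaks. The WT ratio enters the difference itself, so some of this order comes with the way the peaks were divided.

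The peaks affected in one background were in part those affected in the other. At least 0.1 higher in KO were 143 shared peaks in Dom (41.4%) and 156 in Cast (45.2%). Of the 345 shared peaks, 98 were higher in KO by at least 0.1 in both backgrounds (28.4%) and 2 were lower by as much in both (0.58%). The same rule gave 14 higher (4.06%) and 11 lower (3.19%) on day 0. Fewer shared peaks were at least 0.1 higher in each background then, 62 in Dom (18%) and 44 in Cast (12.8%). How many peaks such shares place in both by chance was not tested. On day 7 a further 45 peaks passed the limit in Dom alone and 58 in Cast alone, while 114 were within 0.1 of WT in both. With no limit of size, 214 were higher in both KO lines, 30 lower in both and 93 of opposite sign, and 8 had a difference of exactly 0 in a background. Across the 345 peaks, the differences in the 2 backgrounds had a Spearman correlation of 0.412 on day 7 and 0.033 on day 0, as a description across peaks of the same 4 lines.

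**Figure D2:**
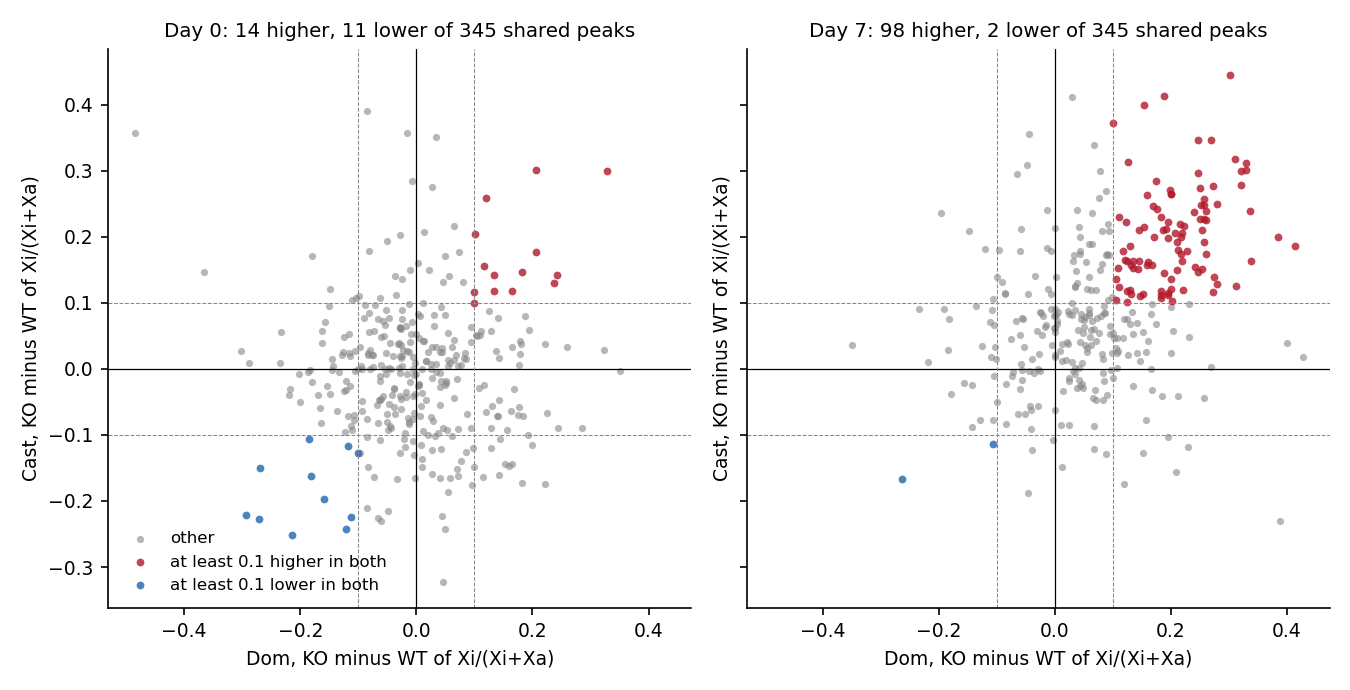
KO minus WT allelic ratio of the 345 shared peaks in the Dom (x axis) and Cast (y axis) background, on day 0 and day 7, 1 point per peak. Red points are at least 0.1 higher in both backgrounds (14 on day 0, 98 on day 7) and blue points at least 0.1 lower in both (11 and 2).

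limma was fitted to the shared peaks of the 4 day 7 libraries, with background as the block and p-values adjusted by Benjamini-Hochberg, and called 0 peaks (0.0%). The smallest adjusted p was 0.0946, with 103 peaks higher (29.9%) and 2 lower (0.58%) at an unadjusted p under 0.05. Of these 103, 96 were among the 98 peaks above. Both rules read the same 4 ratios of a peak, so this overlap is largely built in and is no separate support. When all 5 days entered the same fit, so that the spread was estimated from all 20 libraries, limma called 52 peaks higher on day 7 (15.1%) and 0 lower, where 101 peaks higher and 0 lower had an unadjusted p under 0.05. All 52 were among the 98 peaks, whose rule reads the same day 7 ratios. That fit treats the days of a line as independent samples, although all come from the same 2 KO clones and 2 WT lines. No other limma fit to day 7 called a peak.

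The 98 shared peaks lay nearest to 84 genes and comprised 64 promoters and 34 distal REs. The YY1 mark was on 74 of them (75.5%), against 57.1% of all shared peaks, and their median observed over expected CpG was 0.644 against 0.542. In Dom their median ratio was 0.0632 in WT and 0.297 in SmA3, and in Cast 0.0645 in WT and 0.263 in SmD5. Relative to day 0 of the same line, WT cells had kept a median of 13.2% (Dom) and 12.2% (Cast) of the ratio at these peaks, and KO cells 59.5% and 56.2%. At the other 247 shared peaks these shares were 18.3% and 16.9% in WT and 28% and 29.3% in KO. The rule that picked the 98 peaks favours low WT and high KO ratios, so these levels and shares describe the choice and are no finding. On day 0 they were near equal accessibility in every line, with medians between 0.495 and 0.503, and their median KO minus WT was -0.0135 in Dom and 0.000602 in Cast.

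The 20 peaks with the largest smaller difference, those furthest above WT in both backgrounds, were 12 promoters and 8 distal REs, of which 16 carried the YY1 mark. Their median ratio was 0.0652 in WT and 0.331 in KO in Dom, and 0.0561 and 0.328 in Cast. They were picked by these same differences. The gaps between KO and WT, here and at the single peaks below, thus describe the choice and are no finding. Averaged over backgrounds the 20 peaks were higher by 0.239 to 0.374 (limma standard errors 0.035 to 0.0534), all with an adjusted p of 0.0946 from limma on day 7. The fit over all 5 days called 18 of them, at adjusted p between 0.00832 and 0.0408 from limma. For the other 2, the distal REs near Ddx3x and in Nhsl2, it gave adjusted p of 0.07 and 0.184.

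Promoters of genes for RNA metabolism and translation stood among the first of these. At Rpl10, the gene of a large-subunit ribosomal protein (chrX:74269766-74271372), the ratio was 0.0267 in WT and 0.329 in SmA3, and 0.0408 in WT and 0.486 in SmD5. SmD5 thus came close to equal accessibility of both alleles, and the difference was the largest of the 20 in that background, 0.445. Fmr1, whose product binds mRNAs and controls their translation at synapses (chrX:68677961-68679584), had 0.096 in WT and 0.407 in SmA3, and 0.0707 in WT and 0.388 in SmD5. Htatsf1, a splicing factor (chrX:57052843-57054298), had 0.0551 in WT and 0.324 in SmA3, and 0.045 in WT and 0.392 in SmD5. At all 3 promoters both KO ratios lay above both WT ratios, as the choice of the 20 favours.

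The largest smaller difference was at the bidirectional promoter of Idh3g and Ssr4 (chrX:73786120-73787661). Idh3g encodes a subunit of mitochondrial isocitrate dehydrogenase and Ssr4 a subunit of the translocon-associated complex of the endoplasmic reticulum. The ratio was 0.114 in WT and 0.444 in SmA3, and 0.111 in WT and 0.423 in SmD5, which are differences of 0.33 and 0.312. The backgrounds were nearly alike here, as the limma standard error of 0.0353 on the mean difference of 0.321 shows.

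Promoters of transcription and chromatin regulators formed a further group. Taf1, the largest subunit of TFIID (chrX:101532275-101533303), had 0.0633 in WT and 0.385 in SmA3, and 0.0789 in WT and 0.357 in SmD5. Hcfc1, a cofactor that tethers histone-modifying enzymes to promoters (chrX:73965671-73968116), had 0.067 in WT and 0.313 in SmA3, and 0.0877 in WT and 0.384 in SmD5. Both promoters carried the YY1 mark.

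The remaining leading promoters belonged to genes of membranes, cilia and signalling. Rpgr, a protein of photoreceptor cilia (chrX:10216053-10217022), had 0.0778 in WT and 0.407 in SmA3, and 0.0533 in WT and 0.354 in SmD5. Slc35a2, the Golgi transporter of UDP-galactose (chrX:7883614-7884600), had 0.0526 in WT and 0.325 in SmA3, and 0.0374 in WT and 0.313 in SmD5. Clcn5, a chloride-proton exchanger of endosomes (chrX:7318454-7319666), had 0.041 in WT and 0.301 in SmA3, and 0.0588 in WT and 0.298 in SmD5. These KO ratios sat within a narrow band, from 0.298 to 0.407. Otud5, a deubiquitinase (chrX:7840950-7842644), had 0.0426 in WT and 0.3 in SmA3, and 0.0645 in WT and 0.321 in SmD5. Araf, a kinase of the RAF family (chrX:20848000-20848961), had 0.122 in WT and 0.362 in SmA3, and 0.0517 in WT and 0.289 in SmD5. The Dom WT ratio of Araf was the highest among the 12 promoters.

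**Figure D3:**
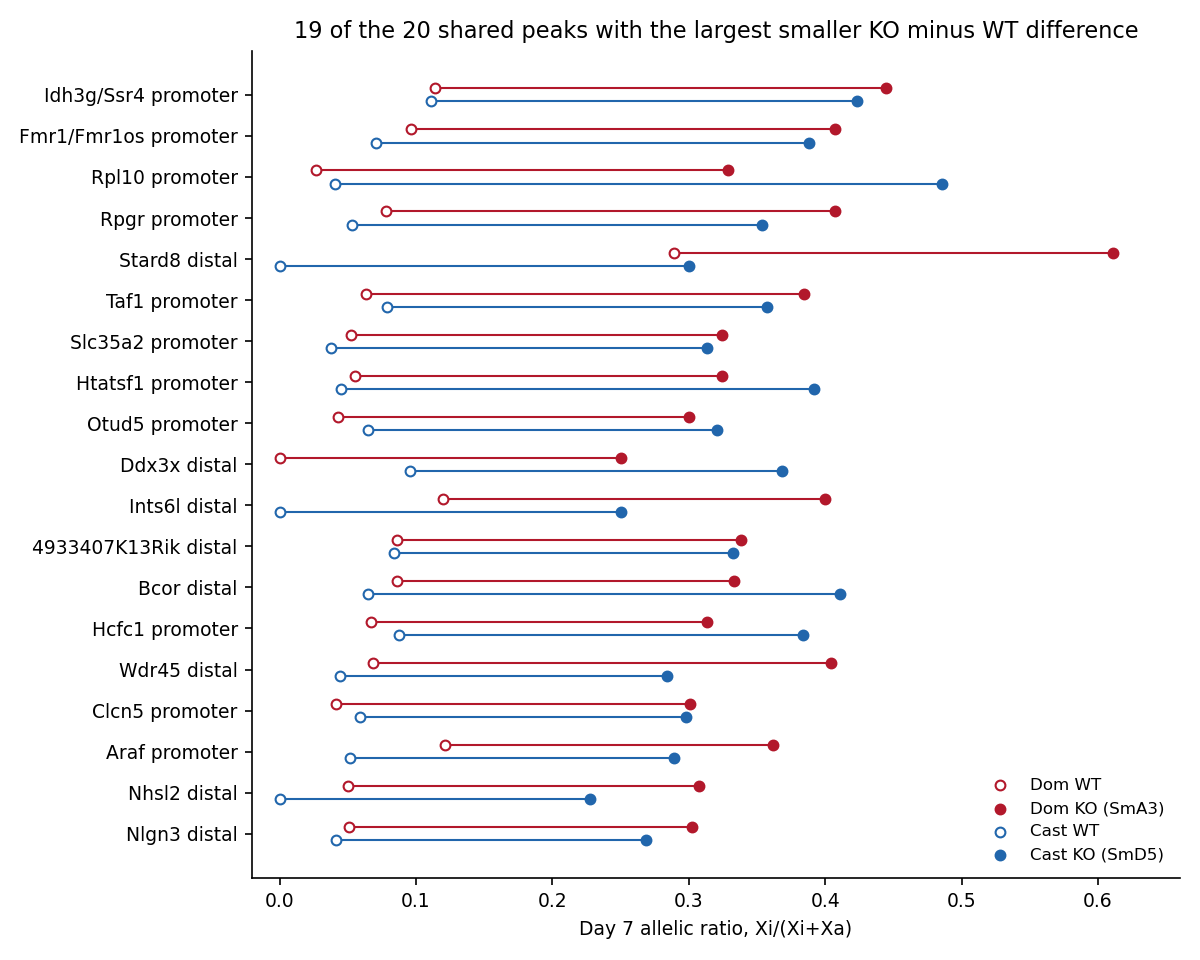
Day 7 allelic ratio Xi/(Xi + Xa) (x axis) of 19 of the 20 shared peaks with the largest smaller KO minus WT difference, named by nearest gene (y axis), in WT (open circles) and KO (filled circles) of the Dom and Cast backgrounds, 1 library per point. KO ratios span 0.227 to 0.611 and WT ratios 0 to 0.289, and only the Stard8 RE has a WT ratio above 0.122.

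Of the 8 distal REs among the 20, 4 carried the YY1 mark. The RE upstream of Wdr45, a gene of autophagy (chrX:7713919-7714946), had 0.0685 in WT and 0.404 in SmA3, and 0.0446 in WT and 0.284 in SmD5. The RE 90046 bp from 4933407K13Rik (chrX:75673286-75674653) had 0.0858 in WT and 0.339 in SmA3, and 0.0841 in WT and 0.332 in SmD5. Introns of this noncoding transcript hold the peaks of the Dxz4 window. An RE near Nlgn3, a cell adhesion protein of synapses (chrX:101332168-101333406), had 0.051 in WT and 0.302 in SmA3, and 0.0411 in WT and 0.268 in SmD5. Both KO ratios lay above both WT ratios at these 3 REs, as the choice of the 20 favours. An intronic RE of Nhsl2 (chrX:101942312-101942998) had 0.05 in WT and 0.308 in SmA3, and was listed at 0 in WT and 0.227 in SmD5.

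The other 4 distal REs had no YY1 mark, and at 3 of them a WT line was listed at 0. The RE 35900 bp from Stard8, a GTPase-activating protein (chrX:99078481-99078987), had 0.289 in WT and 0.611 in SmA3, and 0 in WT and 0.3 in SmD5. The RE near Ints6l, an Integrator subunit (chrX:56427491-56427806), had 0.12 in WT and 0.4 in SmA3, and 0 in WT and 0.25 in SmD5. The RE 63503 bp from Ddx3x, an RNA helicase (chrX:13344525-13345434), had 0 in WT and 0.25 in SmA3, and 0.0952 in WT and 0.368 in SmD5. At Stard8 both KO ratios lay above both WT ratios, but the SmD5 ratio was close to that of the Dom WT line. The Ddx3x RE was uneven before induction, with day 0 ratios of 0.4 in WT and 0.75 in SmA3, and its mean difference of 0.262 became 0.0882 with the day 0 ratios subtracted. An RE in an intron of Bcor, a Polycomb-associated corepressor (chrX:12133238-12133938), had 0.0857 in WT and 0.333 in SmA3, and 0.0645 in WT and 0.411 in SmD5.

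Among the gene lists used here, those of cell division and of RNA processing held the largest shares of peaks higher in both backgrounds by 0.1. This share was 28.4% over all shared peaks and 32.3% over the 198 shared promoters. The lists were drawn up with earlier results of these data known. A high share therefore describes a list, and whether it is a trait of the gene class was not tested. Of 8 peaks of cell division and DNA repair genes, 6 were higher (75%), with a median KO minus WT of 0.169 in Dom and 0.157 in Cast. Of 25 peaks of RNA processing and translation genes, 14 were higher (56%), with medians of 0.152 and 0.165. Of 30 peaks of membrane traffic and vesicle genes, 14 were higher (46.7%), with medians of 0.14 and 0.107. The medians of all shared peaks were 0.073 and 0.0852. The fit over all 5 days called 3 of the 8, 9 of the 25 and 11 of the 30 peaks, and none of the 3 lists had a peak lower in both by 0.1.

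Among genes of cell division, the promoter of Haus7, a subunit of the spindle complex augmin (chrX:73458734-73459538), had 0.0479 in WT and 0.255 in SmA3, and 0.018 in WT and 0.223 in SmD5. Pin4, a peptidyl-prolyl isomerase (chrX:102118921-102119791), had 0.068 in WT and 0.287 in SmA3, and 0.0755 in WT and 0.238 in SmD5. Ercc6l, a DNA translocase of mitotic chromosomes (chrX:102156672-102157600), had 0.0463 in WT and 0.257 in SmA3, and 0.0312 in WT and 0.18 in SmD5. These promoters were each above WT in both backgrounds, though lower in KO than the leading ones. The fit over all 5 days called Haus7 and Pin4 (adjusted p = 0.0302 and 0.0256 from limma), and for Ercc6l it gave 0.0846. The lowest of the 8 was the promoter of Pola1, the catalytic subunit of DNA polymerase alpha, where KO exceeded WT by 0.0779 in Dom and 0.149 in Cast.

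The next 4 lists were near the share of all shared peaks or below it. Of 62 peaks of chromatin and transcription regulators 19 were higher in both by 0.1 (30.6%), with medians of 0.0959 in Dom and 0.0927 in Cast. Genes of mitochondria and metabolism had 5 of 16 peaks (31.2%) and neuronal genes 5 of 17 (29.4%). Over all Cast peaks, the mitochondrial list had 24 of 38 at least 0.1 higher in SmD5 (63.2%, median 0.126), beside 44.6% and a median of 0.0833 over the whole Cast table. On the mitochondrial list, the promoter of Ndufb11, a subunit of respiratory complex I, is also that of Rbm10 (chrX:20616898-20618322). Its ratio was 0.122 in WT and 0.323 in SmA3, and 0.0345 in WT and 0.171 in SmD5. The ubiquitin pathway had 2 of 12 peaks (16.7%), near Otud5 and in Klhl13. The fit over all 5 days called 10 peaks of the regulators, 3 each of the mitochondrial and neuronal lists and 1 of the ubiquitin pathway. Several of these lists share peaks, such as Fmr1, which is in both the RNA and the neuronal list.

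REs of genes known to escape X inactivation had higher Xi ratios in KO at several peaks. Of 10 shared peaks near 4 such genes, 4 were higher in both by 0.1 (40%), with medians of 0.155 in Dom and 0.0971 in Cast, and limma called 1 of them over all 5 days. Those 4 were the promoters of Ddx3x and Utp14a and distal REs 63503 bp from Ddx3x and 34177 bp from Eif2s3x. Over all 20 Cast peaks of such genes, 7 were at least 0.1 higher in SmD5 (35%) with a median of 0.0551, below the 44.6% and 0.0833 of the whole Cast table. At the promoter of Ddx3x (chrX:13279999-13282319) the ratio was 0.293 in WT and 0.476 in SmA3, and 0.356 in WT and 0.463 in SmD5. The promoter of Utp14a, which acts in ribosome biogenesis (chrX:48256055-48257188), had 0.206 in WT and 0.422 in SmA3, and 0.19 in WT and 0.41 in SmD5. Utp14a was the peak called over all 5 days (adjusted p = 0.0192 from limma). In the opposite direction, an intronic RE of Eif2s3x, a translation initiation factor subunit (chrX:94194036-94194401), had 0.143 in WT and 0 in SmA3, and 0.125 in WT and 0.1 in SmD5. At the Eif2s3x promoter, KO minus WT averaged over backgrounds was -0.0313.

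Promoters that carried the YY1 mark had the larger differences in both backgrounds. In Dom, the median of KO minus WT was 0.106 over 139 YY1-marked promoters and 0.0233 over 66 other promoters. In Cast it was 0.12 over 230 and 0.0582 over 112. Of the shared peaks, 56 of 137 YY1-marked promoters (40.9%) and 8 of 61 other promoters (13.1%) were higher in both by 0.1. The fit over all 5 days called 35 of the former and 2 of the latter. Peaks are not replicates, so these differences between groups of peaks were not tested.

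At distal REs the YY1-marked and other peaks lay closer together, and their order in Dom depended on 3 architectural loci. The median of KO minus WT was 0.0382 over 64 YY1-marked and 0.0559 over 121 other distal peaks in Dom, and 0.0902 over 77 and 0.0671 over 164 in Cast. Without the peaks of the Firre, Dxz4 and Xist windows, it was 0.088 against 0.059 in Dom and 0.104 against 0.0676 in Cast, a comparison added after the values had been seen. Among shared distal REs, 18 of 60 YY1-marked (30%) and 16 of 87 other peaks (18.4%) were higher in both by 0.1. The deposited mark is broader than the YY1 class in the list of REs of the study, which holds 75 of the Dom peaks where the mark holds 203. By that narrower class, 33 of 72 shared YY1 peaks were higher in both (45.8%). For CTCF, the same list gave 25 of 90 shared peaks (27.8%) with and 73 of 247 (29.6%) without the factor, a share on either side of the 28.4% over all peaks.

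**Figure D4:**
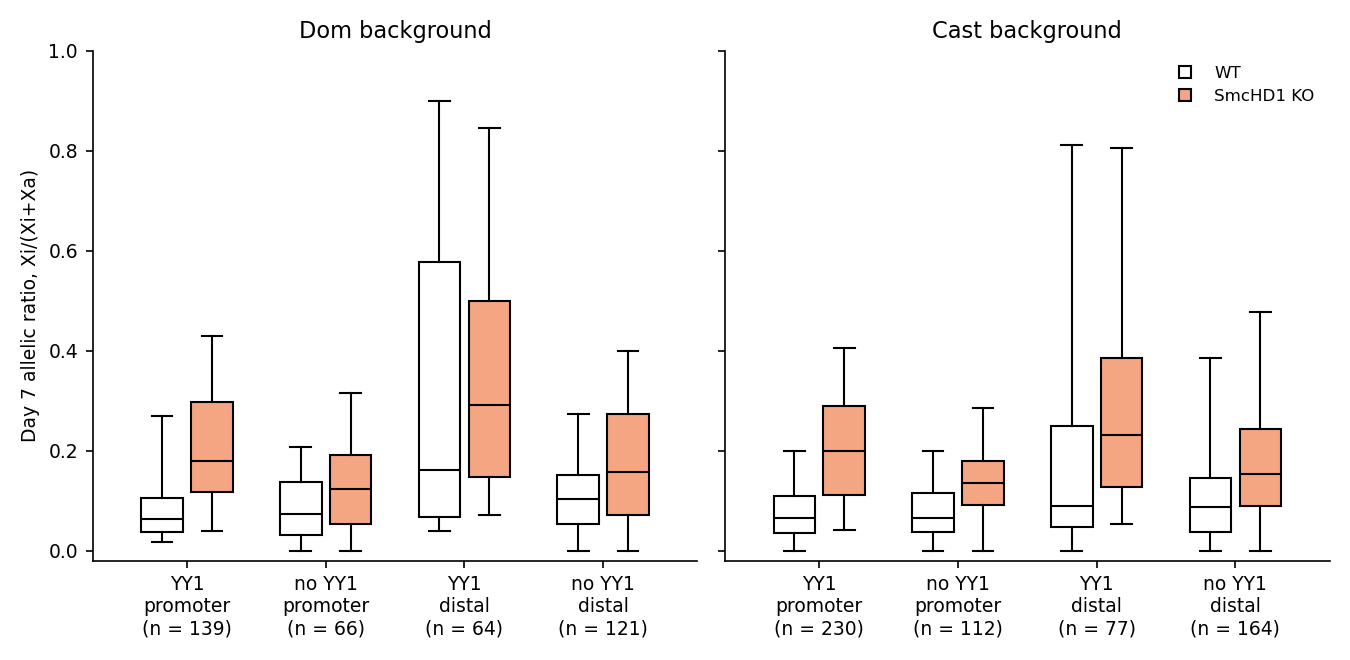
Day 7 allelic ratio Xi/(Xi + Xa) (y axis) of WT (white boxes) and SmcHD1 KO (filled boxes) by promoter or distal position and YY1 mark, in the Dom and Cast backgrounds, over peaks of 1 library per line. The KO boxes of YY1-marked promoters, with median differences of 0.106 in Dom and 0.12 in Cast, stand further above WT than those of other promoters, with 0.0233 and 0.0582.

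Sequence words gave a similar order for YY1. The word AAGATGGC, searched on both strands of the whole peak, was present in 48 of 197 YY1-marked shared peaks (24.4%) and 2 of 148 others (1.35%). It was present in 20 of the 98 peaks higher in both (20.4%) and in 50 of all 345 shared peaks (14.5%). Within 300 bases at the peak centres these shares were 8.16% and 5.22%, and among 32851 RefSeq promoter windows of 300 bases 2.75% held it (3.11% of 1223 on chromosome X). Promoters with the word had a median KO minus WT of 0.128 in Dom and 0.122 in Cast, and those without it 0.0758 and 0.0865. Longer peaks hold more words, and the peaks higher in both had a median length of 1133 bp against 1046 bp over all shared peaks.

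The CTCF words searched were CAGAGGGC, CAGATGGC, CAGGGGGC, CAGGTGGC, TAGAGGGC, TAGATGGC, TAGGGGGC and TAGGTGGC, on both strands. CAGATGGC and TAGATGGC differ from the YY1 word in the first letter alone. They were found in 39 of the 98 peaks (39.8%) and 140 of all 345 (40.6%), close to each other. Within 300 bases at the centres the shares were 18.4% and 17.1%, and 12% of the RefSeq promoter windows held a word (11.7% on chromosome X). Among the 20 leading peaks, 10 held a CTCF word and 5 the YY1 word. By the CTCF class of the study's list of REs, 48 of 90 shared peaks with the factor held a CTCF word (53.3%). Without the factor, 87 of 247 did (35.2%), so the words are a loose guide to CTCF sites. A word is a match of letters and was not tested for binding.

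Genes were classed by how fast their RNA is silenced after Xist induction, as the study took from an earlier table. REs of slow-silencing genes had 44 of 98 shared peaks higher in both by 0.1 (44.9%), intermediate genes 20 of 70 (28.6%) and fast-silencing genes 10 of 69 (14.5%). The median of KO minus WT over the shared peaks was 0.115, 0.0899 and 0.05 in Dom and 0.138, 0.111 and 0.0549 in Cast in this order. Genes that the study lists as SmcHD1-dependent had 12 of 30 peaks higher in both (40%), partially dependent genes 32 of 84 (38.1%) and genes not dependent 18 of 82 (22%). Their medians were 0.135, 0.0923 and 0.0512 in Dom and 0.0864, 0.146 and 0.0779 in Cast, so that in Cast the partially dependent genes stood above the dependent ones. These classes were drawn from RNA of the same cell system, and are not independent of the lines used here.

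Along the chromosome, the 98 peaks were found over the whole informative interval but lay densest towards the centromeric end. In Dom only the part of the chromosome proximal to Xist is informative, so the shared peaks span 6.09 to 103.5 Mb. Before 20 Mb, 42 of 105 shared peaks were higher in both (40%), and after it 56 of 240 (23.3%). In steps of 10 Mb the share was 37.3% and 42.6% up to 20 Mb, 30% in the next step and 30.6% from 100 Mb. In the steps between it was 14.3% to 25.6%. The limit of 20 Mb falls right after the highest steps, so some of the contrast comes with its choice. Counted by distance from Xist, the shares were 38.4% of 125 peaks at 75 to 100 Mb, 19.6% of 51 at 50 to 75 Mb, 22.7% of 88 at 25 to 50 Mb and 24.7% of 81 within 25 Mb. The share of YY1-marked peaks did not follow this order, with 53.6%, 70.6%, 61.4% and 49.4%. The share at least 0.1 higher in Dom was 44.6%, 26.4%, 43% and 38.8% in the same order, so the rise at the far end was mainly in the Cast background and in the peaks higher in both. Neighbouring peaks are not independent, and this order was not tested.

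Peaks in Cast extend past Xist to 169.9 Mb, which adds 218 peaks that Dom cannot show. Their share at least 0.1 higher in SmD5 was 40% of 35 peaks within 25 Mb of Xist, 38.5% of 109 at 25 to 50 Mb and 56.8% of 74 at 50 to 75 Mb. On the centromeric side of the same line it was 37.9% of 87, 38.9% of 90, 30.4% of 56 and 58.3% of 132, from Xist outwards. In this line, both ends of the chromosome thus had higher shares than the regions around Xist, as a description of 1 KO and 1 WT library.

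**Figure D5:**
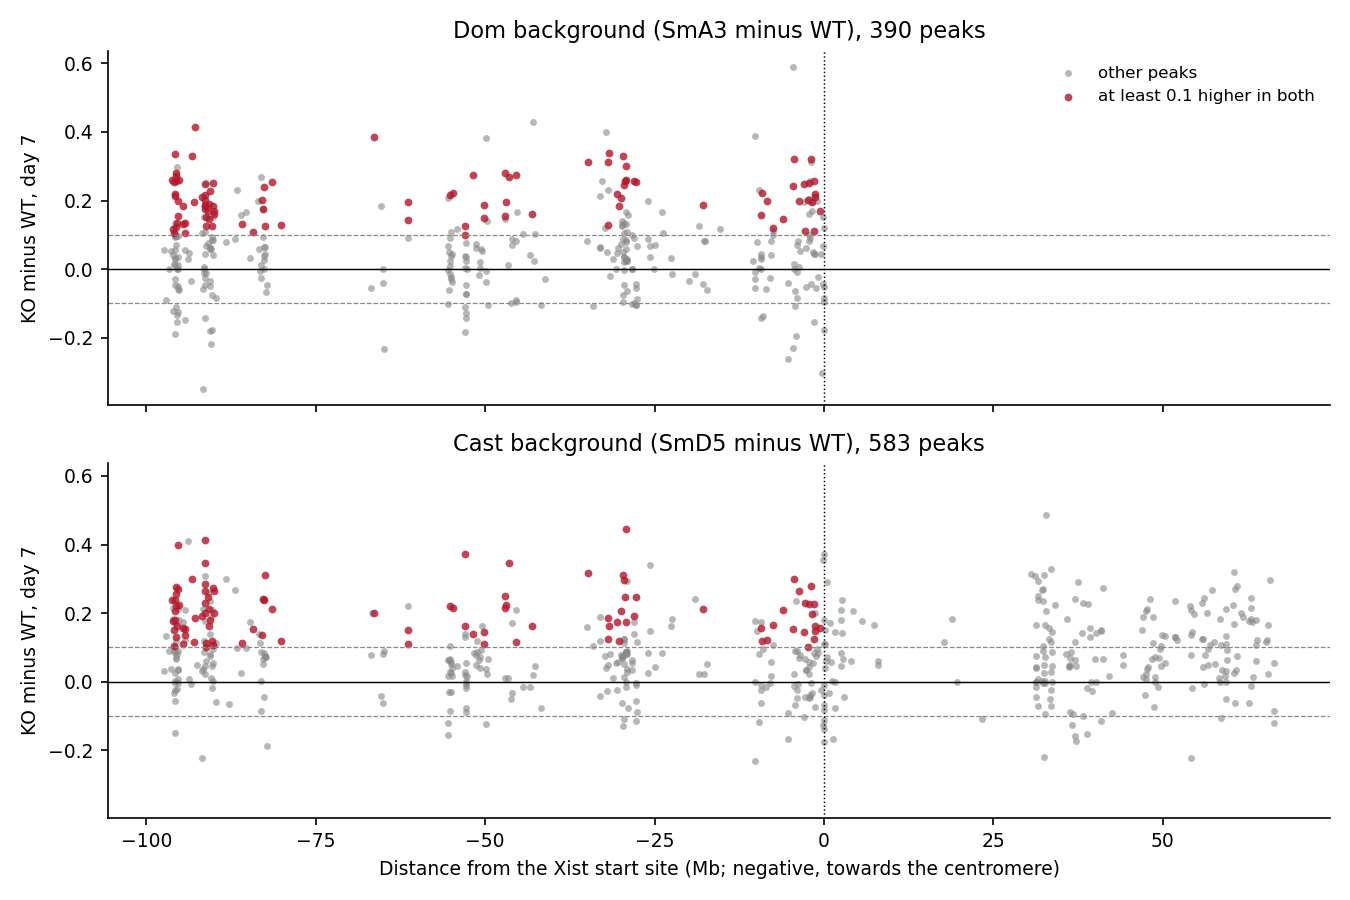
KO minus WT allelic ratio on day 7 (y axis) of each peak against its distance from the Xist start site (x axis, Mb, negative towards the centromere), in Dom (390 peaks) and Cast (583 peaks). Red points are the 98 shared peaks at least 0.1 higher in both backgrounds, which are densest furthest from Xist and recur in clusters up to Xist, and only Cast has peaks beyond Xist.

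Joined where neighbours lay within 500 kb, the 98 peaks formed 31 groups, of which 15 were single peaks and 4 held at least 5 peaks each, 51 in all. The first of the 4 runs from Clcn5 to Ftsj1 (chrX:7318454-8253118), where 15 of 38 shared peaks were higher in both. It holds Wdr45, Otud5 and Slc35a2, described above, and the promoter of the histone methyltransferase gene Suv39h1, with 0.132 in WT and 0.267 in SmA3, and 0.2 in WT and 0.364 in SmD5. The group from 73007777 to 74297654 holds Idh3g, Hcfc1 and Rpl10, with 8 of 25 peaks. The group from 100493628 to 102157600 holds Kif4, a chromokinesin, Taf1, Nhsl2, Pin4, Ercc6l and Ogt, the O-GlcNAc transferase, with 10 of 23 peaks. In all 4 groups the larger part of the shared peaks was not higher in both by 0.1.

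The group with the most peaks (chrX:11664156-13462371, 18 of 41 shared peaks) surrounds Bcor, which alone had 16 shared peaks, 7 of them higher in both. At the Bcor promoter (chrX:12078273-12082042) the ratio was 0.108 in WT and 0.282 in SmA3, and 0.132 in WT and 0.416 in SmD5. An intronic RE (chrX:12155560-12156290) had 0 in WT and 0.188 in SmA3, and 0.267 in WT and 0.68 in SmD5. A distal RE 272463 bp away (chrX:11807075-11808090) differed from these, with 0.35 in WT and 0 in SmA3, and 0.25 in WT and 0.286 in SmD5. This RE was below WT in Dom alone, and limma on day 7 gave it an adjusted p of 0.418. Whether it differs from the other REs nearest to Bcor by more than the spread of single libraries was not tested. Over 42 genes with both a promoter and a distal shared peak, KO minus WT was higher at the promoter in 20 and at the distal RE in 22, with a median promoter minus distal of -0.0186.

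REs of the Firre, Dxz4 and Xist loci, many of which were open on Xi in WT, had no common direction. Firre and Dxz4 are long noncoding RNA and repeat loci that bind CTCF and anchor the large loops of Xi. In the Dxz4 window, all 4 peaks were lower in KO in both backgrounds, with medians of KO minus WT of -0.0805 in Dom and -0.0339 in Cast. The peak furthest below WT (chrX:75753861-75754902) had 0.585 in WT and 0.479 in SmA3, and 0.703 in WT and 0.589 in SmD5, an adjusted p of 0.161 from limma. In the Firre window, KO exceeded WT at 7 of 14 peaks in Dom and 8 of 13 in Cast, and the median ratio was 0.684 in WT and 0.65 in SmA3, and 0.578 in WT and 0.68 in SmD5. The intronic RE of Firre whose word is printed first above (chrX:50607525-50608322) had 0.851 in WT and 0.722 in SmA3, and 0.578 in WT and 0.5 in SmD5.

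At the Xist promoter (chrX:103480495-103483248), named by the RefSeq TSS, the ratio was 0.811 in WT and 0.931 in SmA3, and 0.8 in WT and 0.625 in SmD5. The direction thus differed between backgrounds. On day 0 the ratio of this peak was 0.793 in WT and 0.593 in SmA3, and 0.45 in WT and 0.4 in SmD5. Of the 7 shared peaks of X inactivation centre genes, none was higher in both KO lines and 3 were lower in both, with medians of -0.0512 in Dom and -0.0678 in Cast. Over all 15 Cast peaks of these genes the median was 0.0606, with 9 higher in SmD5 than in WT and 6 of them by at least 0.1. An RE near Tsx, a gene next to Xist (chrX:103404509-103405656), had 0.208 in WT and 0.125 in SmA3, and 0.25 in WT and 0.167 in SmD5. The YY1 word was found in 8 of 13 shared peaks of the Firre window, 3 of 4 of the Xist window and 0 of 4 of the Dxz4 window. A CTCF word was found in 1 of 13, 3 of 4 and 0 of 4 in this order.

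Outside the Firre, Dxz4 and Xist windows, 20 of 324 shared peaks were lower in both KO lines, 1 of them by at least 0.1. With smaller differences, a peak near Ldoc1, a retrotransposon-derived gene (chrX:61722369-61724063), had 0.143 in WT and 0.037 in SmA3, and 0.136 in WT and 0.0588 in SmD5. In the Firre window but outside the gene (chrX:50657958-50658284), a peak had 0.143 in WT and 0 in SmA3, and 0.174 in WT and 0.0857 in SmD5. Neither had a YY1 mark, and limma gave them adjusted p of 0.216 and 0.171.

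Among peaks found in a single background, the largest differences in Dom were at distal REs and in Cast mostly at promoters. In Dom, an RE 16322 bp from Yipf6, a Golgi protein (chrX:98954103-98954392), had 0.0769 in WT and 0.667 in SmA3, and an RE 10179 bp from Taf1 (chrX:101522017-101522556) had 0.0882 and 0.4. Over the 45 peaks found in Dom alone the median difference was 0, with 14 at least 0.1 higher in SmA3 and 6 lower by as much. In Cast, 7 of the 8 peaks with the largest differences beyond Xist were promoters. That of Bex1, a neuronal signalling adaptor (chrX:136214860-136215907), had 0.158 in WT and 0.643 in SmD5, and that of Slc25a53, a mitochondrial carrier (chrX:137037431-137038618), 0.0182 and 0.347. Cstf2, a subunit of the RNA cleavage stimulation factor (chrX:134058958-134059879), had 0.0909 and 0.405. The shared promoter of Hnrnph2, a splicing regulator, and Gla, the lysosomal alpha-galactosidase (chrX:134600322-134601983), was listed at 0 in WT and had 0.308 in SmD5. Proximal to Xist, the promoter of the escapee Slc25a5, the mitochondrial ADP/ATP carrier (chrX:36795284-36796683), was listed at 0 in WT and had 0.2 in SmD5. The paper marks the Slc25a5 locus as keeping accessibility on both alleles in the Dom line, unlike the 0 listed here for Cast WT, whose depth is unknown. All differences at peaks of a single background rest on 1 library per genotype, with no replicate check.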

How the data were processed

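Allele-specific ATAC-seq of the day 7 libraries of 4 lines was used, with day 0 of the same lines as control. Reads were aligned by the authors to a masked mm10 genome (Bowtie2 2.3.5.1), cleared of duplicates (Picard), split by strain and used for peak calling (MACS2, q 0.01). Peaks were merged per background, allelic fragments counted (featureCounts) and peaks filtered by these counts and by day 0 ratio. The authors deposited the allelic ratio of each peak and library as a fraction between 0 and 1, with a YY1 mark. SAMtools and deepTools 3.5.0 are also named in the submitters' processing notes. Fragment counts and depth are unknown, and no counts were inferred. Columns not used came to 0.

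KO minus WT was taken within a background. Line medians were compared with an exact permutation test. Shared peaks were tested with limma 3.58.1 in R 4.3.3, with background as the block and p-values adjusted by Benjamini-Hochberg (threshold 0.05), in a script tested on simulated data. The background pairs each KO with its own parent line, as the titles give it, and is also which chromosome carries Xist. Replicates are separate lines of 1 library each. Peaks were joined to RefSeq (GRCm38.p6), from which sequences were read. Other values were computed in Python 3.11.15 (numpy 2.4.6, pandas 2.3.3, scipy 1.17.1) and drawn with matplotlib 3.10.9. Windows of Firre and Xist are the genes with 50 kb on each side, and that of Dxz4 runs from 75700000 to 75800000.

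Members, lists of genes and the rule for naming peaks were chosen with earlier results of these data known. Named peaks are the 20 shared peaks with the highest smaller difference, the 6 with the lowest larger difference, the 6 with the largest gap between backgrounds, the 5 highest of Dom alone, the 5 (proximal) and 8 (distal to Xist) highest of Cast alone, peaks of the 3 windows, and up to 4 highest and the lowest of each gene list. Suv39h1, Kif4, Ogt and further Bcor peaks were chosen after their values were seen. Some peaks that the rule picks stay in the fits and counts but are not reported here by name. Alternatives covered the block, the scale, day 0, overlap, limits of size, promoter distance, left-out lines and peak classes, and distal peaks outside the windows were added after seeing the data.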

Additional observations from a re-analysis of the deposited data

Results flagged for a closer look

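At 11 of the 345 shared peaks, KO minus WT was at least 0.1 in one direction in Dom and at least 0.1 in the other in Cast. Over all shared peaks, 143 were at least 0.1 higher and 29 at least 0.1 lower in Dom, and 156 and 14 in Cast. Whether 11 differs from what such counts give by chance was not tested. The difference between the backgrounds was not tested, since each has 1 KO and 1 WT library. Values of 10 of them are given as KO minus WT in Dom and then in Cast. SmA3 was the higher near AU015836 (0.23 and -0.118), Apln (0.209 and -0.156) and P2ry4 (0.194 and -0.103), at Cdx4 (0.152 and -0.127) and at the Xist promoter (0.12 and -0.175). SmD5 was the higher near Gm14812 (-0.196 and 0.236), 4930402K13Rik (-0.148 and 0.208), 2010204K13Rik (-0.121 and 0.182), Vbp1 (-0.1 and 0.139) and Aff2 (-0.107 and 0.105).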

How the results depend on the processing

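limma called 0 shared peaks on a logit scale, without the background block, with robust variance, at other overlaps, without ratios of 0 or 1, with narrower day 0 limits, with day 0 subtracted and without each line, at between 35 and 106 peaks higher with an unadjusted p under 0.05, and called 52 with all 5 days in one fit. Without each line in turn, calls ranged from 0 to 0 in fits with no block, since a pair is then broken, and with a lone library assumed to vary like the others, which shows no stability, and the difference of line medians from 0.0833 to 0.0952. The pairing by background, removed in the fit with no background block, changed no call. The count of 98 became 151, 58 and 29 at limits of 0.05, 0.15 and 0.2, with 9, 1 and 0 peaks lower in both.

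The Dom median became 0.0894 with day 0 subtracted, 0.0812 without ratios of 0 or 1, 0.0815 at promoters and 0.05 at distal peaks, and the Cast median 0.0714 at distal peaks. YY1-marked minus other peaks (0.0476 in Dom, 0.0501 in Cast) became 0.0825 and 0.062 at promoters, -0.0177 and 0.0231 at distal peaks, 0.029 and 0.0366 at distal peaks outside the windows, 0.0446 and 0.0524 at shared peaks, 0.0699 and 0.0653 with day 0 subtracted and 0.0457 and 0.0649 with the narrower YY1 class, and in Dom 0.0405 as means. Promoter minus distal in Cast (0.0186) became 0.038 with day 0 subtracted.

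The Ddx3x, Pola1, Tsx and outer Firre peaks became 0.0882, 0.0643, -0.16 and -0.0208 with day 0 subtracted. In that setting, 7 of 66 named peaks changed sign: Ebp (0.00416), Tspan7 (-0.0371), Apln (-0.0276), Gm35612 (-0.0204), Eif2s3x (0.0633) and Xist (0.102 and 0.0979). On the logit scale 1 did, at the Xist promoter (0.196). The cause of these changes was not tested, and precision is limited by 1 library per line and unknown depth.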
